A study of Arabidopsis thaliana with 9 samples.

Results

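The plastid-encoded genes of Arabidopsis thaliana were taken as all loci whose name starts with ATCG, which gave 133 of the 32833 loci in the table. RNA sequencing values were available for 9 libraries in 3 groups of 3. The groups were young rosette leaves of 8-week-old ntrc plants grown in soil in short days, 6-day-old ntrc seedlings, and 6-day-old wild type (Col-0) seedlings, the seedlings grown on MS medium in continuous light. Light was 125 µE per square metre and second throughout, adult leaves were harvested 2 h after lights on, and each adult library pooled leaves of 3 plants. The allele of the ntrc mutant is not stated in the labels. The affected gene encodes NTRC, a chloroplast enzyme that joins a thioredoxin to the reductase that feeds it electrons from NADPH, and the series asks how this enzyme bears on iron homeostasis. Adult wild type leaves are not analysed here, so genotypes were compared in seedlings only.

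Plastids keep a small circular genome that encodes core subunits of the photosystems, the cytochrome b6f complex, the ATP synthase and an NDH complex, the large subunit of Rubisco, part of the plastid ribosome and RNA polymerase, and the plastid ribosomal and transfer RNAs. Most of its genes are transcribed in long clusters by a bacterial-type polymerase that is encoded in the plastid and guided by nuclear sigma factors, while a phage-type polymerase from the nucleus transcribes others. Plastid transcripts generally carry no stable poly(A) tail, the feature by which mRNA kits select RNA, and many plastid genomes, that of Arabidopsis included, hold a large inverted repeat whose genes exist in a pair of copies. The RefSeq annotation of TAIR10.1 lists 131 genes on this genome, of which 87 are protein-coding, 37 encode transfer RNAs and 7 ribosomal RNAs, but it lists them under other locus tags. Only 7 of the 133 ATCG names occur in that reference at all, in notes on nuclear genes. The other 126 loci are therefore called by their locus names, and no gene name or role of theirs could be checked.

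Library kits differed between the stages. The labels' protocols give a strand-specific kit for total RNA depleted of rRNA for the adult leaves, and one for mRNA for the seedlings, although they list the molecule as polyA RNA throughout. Kit, tissue, age, day length and medium all changed together between adult leaves and seedlings, and their parts in any difference between the stages cannot be told apart. The deposited values were read as log2(FPKM + 1), FPKM being fragments scaled to transcript length and library size, and had been scaled separately for the stages. Read depth cannot be read from them. NTRC (AT2G41680) read 15.1 to 16.2 FPKM in adult ntrc leaves, 16.4 to 19.6 FPKM in ntrc seedlings and 130 to 175 FPKM in wild type seedlings. The labelled tissues were checked on 13 root markers, whose summed level was 5.23 to 5.59 FPKM in adult ntrc leaves, where 6 of the 13 were at 0 in all libraries, 118 to 127 FPKM in ntrc seedlings and 94.9 to 151 FPKM in wild type seedlings, where none was. Most of the adult sum was SCR, at 5.03 to 5.13 FPKM. The 12 green tissue markers described below were lower in adult leaves too, on values from another kit and scaled separately. They summed to 16227 to 17658 FPKM in adult ntrc leaves, 43129 to 53700 FPKM in ntrc seedlings and 40519 to 55758 FPKM in wild type seedlings.

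Plastid loci made up 47.0%, 48.2% and 49.2% of the summed FPKM in the adult ntrc libraries. They made up 0.433%, 0.329% and 0.530% in the ntrc seedling libraries 1 to 3, and 0.216%, 0.359% and 0.388% in the wild type seedling libraries 1 to 3. The adult share was 112 times the mean share in ntrc seedlings, and adult and seedling libraries did not overlap. Between the seedling genotypes the ranges overlapped, with group means of 0.431% ± 0.10 in ntrc and 0.321% ± 0.0918 in wild type (SD, n = 3 each). Wild type library 1 was the lowest and ntrc library 3 the highest of the 6. Within equal library numbers, the summed plastid FPKM in ntrc was 2.11, 0.926 and 1.42 times that in wild type, so number 2 went the other way. The 8 loci that lead in seedlings, named below, had 2.34, 0.890 and 1.43 times the wild type sum. The 125 other plastid loci had 1.13, 1.17 and 1.37 times, higher in ntrc in each number. In bulk RNA, fewer plastid-rich cells and less plastid RNA per cell cannot be told apart. The 152 loci of the other organelle genome, that of the mitochondrion, differed between the library types in the same direction but by less. They took 1.35% to 1.499% in adult ntrc leaves, 0.0207% to 0.0307% in ntrc seedlings and 0.0167% to 0.0290% in wild type seedlings.

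**Figure D1:**
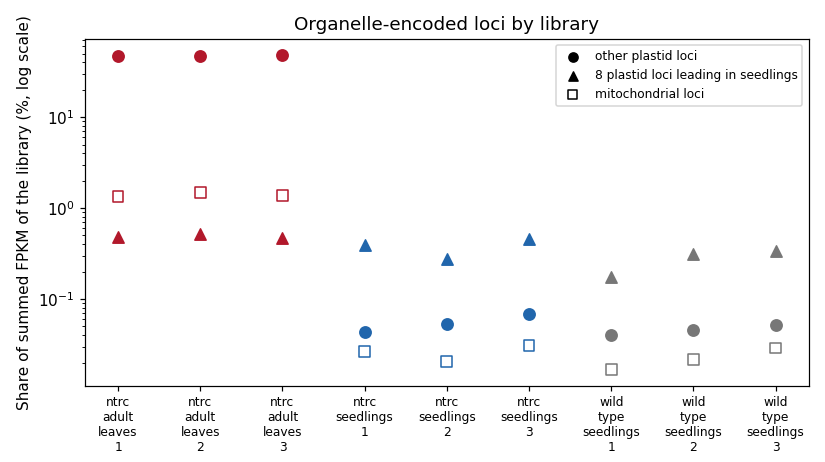
Share of the summed FPKM of each library (log scale) taken by the 8 plastid loci that lead in seedlings (triangles), the 125 other plastid loci (circles) and the 152 mitochondrial loci (squares). The 125 other plastid loci hold 46.5% to 48.7% of the 3 adult ntrc libraries, 0.0434% to 0.0687% of the ntrc seedling libraries and 0.0405% to 0.0524% of the wild type seedling libraries.

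In adult ntrc leaves, plastid expression was dominated by a few loci. ATCG00020 read 120188, 106459 and 126389 FPKM, the highest plastid level in each of the 3 adult libraries. ATCG00490 read 41450, 41387 and 47276 FPKM. These loci held 35.1% ± 0.653 and 13.0% ± 0.577 of the summed plastid FPKM (SD, n = 3). The next in order were ATCG00330 with 2.97% ± 0.0775, ATCG00140 with 2.60% ± 0.0699 and ATCG00340 with 2.44% ± 0.129 (SD, n = 3). The spreads of ATCG00140 and ATCG00340, neighbours in that order, overlapped. The 5 largest loci together held 55.9% to 56.8%. No locus was at 0 in any adult library, 114 loci stood at 100 FPKM or more in all 3, and 42 at 1000 FPKM or more. The lowest mean was 5.10 FPKM, that of ATCG01030. Adult libraries ranked the loci almost alike, with Spearman coefficients of 0.993 to 0.997 over the 133 loci, and the median coefficient of variation of a locus was 9.32%.

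In seedlings of both genotypes the order was different. Only 10 loci reached 10 FPKM or more in all 6 seedling libraries, 46 stayed under 1 FPKM in all 6, and 8 were at 0 in all 6. The 8 loci that each held at least 2% of plastid FPKM over the 6 libraries, called leading loci here, took 0.946% to 1.09% of it in adult ntrc leaves, 90.0%, 84.0% and 87.0% in ntrc libraries 1 to 3 and 81.3%, 87.3% and 86.5% in wild type libraries 1 to 3. They were chosen by the seedling values, which are therefore a description. A list of classes planned from general knowledge, not checked against a source here, put ATCG00920, ATCG00950, ATCG00960, ATCG01170, ATCG01180 and ATCG01210 under ribosomal RNA. It put the remaining leading loci, ATCG00940 and ATCG01190, under transfer RNA. The adult kit depleted rRNA, and its part in the low adult share of the leading loci was not tested.

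ATCG00950 was among the 4 highest plastid loci in both seedling groups. On the separately scaled adult values it read 147, 127 and 168 FPKM. It read 593, 417 and 743 FPKM in ntrc libraries 1 to 3 and 238, 418 and 481 FPKM in wild type libraries 1 to 3. ATCG00920 read 114.5, 100.3 and 137 FPKM in adult ntrc leaves, 530, 448 and 672 FPKM in the ntrc seedling libraries and 226, 502 and 490 FPKM in the wild type libraries. For both loci, among seedlings, wild type library 1 was low and ntrc library 3 high, and the groups overlapped. ATCG00960 read 69.5, 61.4 and 118 FPKM in ntrc seedlings and 39.4, 75 and 80.0 FPKM in wild type seedlings. As shares of plastid FPKM, ATCG00950 held 20.0% ± 1.79 in ntrc seedlings and 17.9% ± 1.08 in wild type seedlings, and ATCG00920 held 19.0% ± 0.476 in ntrc seedlings and 18.8% ± 1.40 in wild type seedlings (SD, n = 3 each). ATCG00020 and ATCG00490, which led in adults, ranked 10th and 9th in both seedling genotypes.

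The leading loci came in pairs with near-identical values. Over the whole set, 17 pairs of loci differed by at most 10% in each adult library and by at most 5% in at least 4 of the 6 seedling libraries, 15 of them in all 6. The 34 paired loci ran in mirrored order of locus number, so that ATCG00840 matched ATCG01300, ATCG00920 matched ATCG01210, ATCG00950 matched ATCG01180 and ATCG00990 matched ATCG01140. For 10 pairs the seedling values differed by less than 0.001 FPKM in every library. The paired loci held 3.43% to 3.60% of plastid FPKM in adult ntrc leaves, 87.1% to 92.0% in ntrc seedlings and 84.3% to 90.3% in wild type seedlings. The sources used here do not say how a read that fits both members of such a pair was counted, so the separate values of these loci are uncertain and the members of a pair are not independent. Counting 1 locus of each pair, the largest share was 36.4% in ntrc seedlings in place of 20.1% (ATCG01180) and 33.8% in wild type seedlings in place of 18.8% (ATCG00920).

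Because the leading loci set the denominator in seedlings, shares were compared between stages in both ways. With all 133 loci as denominator, 101 loci held a share at least 2-fold larger in adult ntrc leaves than in ntrc seedlings, or were at 0 in the ntrc seedling libraries, with the libraries of the groups not overlapping, and 13 held a share at least 2-fold smaller. Those are 75.9% and 9.77% of the loci. Among 18508 nuclear genes with a mean of at least 1 FPKM over the 9 libraries, as shares of nuclear expression, the same rule gave 6.23% larger and 33.1% smaller. All 133 plastid loci also passed that filter, but 46 of them were under 1 FPKM in all 6 seedling libraries and passed only through adult leaves. The percentages are therefore not from like sets. With the 125 other loci as denominator, the counts were 19 larger and 34 smaller, or 15.2% and 27.2%. The 11 loci at 0 in all ntrc seedling libraries are among the larger ones with either denominator. The rule counts them so whatever their adult level, since no locus was at 0 in adult leaves. This is a description without a test, since the kit changes with the stage.

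The loci with the largest ratio of shares, adult ntrc over ntrc seedlings, were ATCG01070 (93.4), ATCG00110 (37.3), ATCG00020 (34.7), ATCG00510 (33.3) and ATCG00210 (27.7). ATCG01070 read 792, 808 and 886 FPKM in adult ntrc leaves and 0, 0.166 and 0.0296 FPKM in ntrc seedlings, so its ratio rests on values near 0. Apart from ATCG00020, these loci were at or under 1.30 FPKM in each ntrc seedling library. Among the 125 other loci ATCG00020 held 35.5% in adult ntrc leaves and 7.93% in ntrc seedlings, a ratio of 4.48, and ATCG00490 held 13.1% in adult ntrc leaves and 8.96% in ntrc seedlings, a ratio of 1.46. The loci with the smallest ratios were ATCG01210, ATCG00920, ATCG01180, ATCG00950 and ATCG00960, all leading loci, at 0.0018 to 0.0033.
Outside the leading loci, ATCG00970 and its near-identical partner ATCG01160 were lowest, at 0.0014 and 0.0015 with the 125-locus denominator. ATCG00970 read 30.3, 47.7 and 20.8 FPKM in adult ntrc leaves and 13.6, 19.5 and 54.3 FPKM in ntrc seedlings, the adult range lying within the seedling one. A further 11 loci were listed at 0 in all 3 ntrc seedling libraries, and their adult means ran from 5.10 FPKM for ATCG01030 to 3036 FPKM for ATCG00400.

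**Figure D2:**
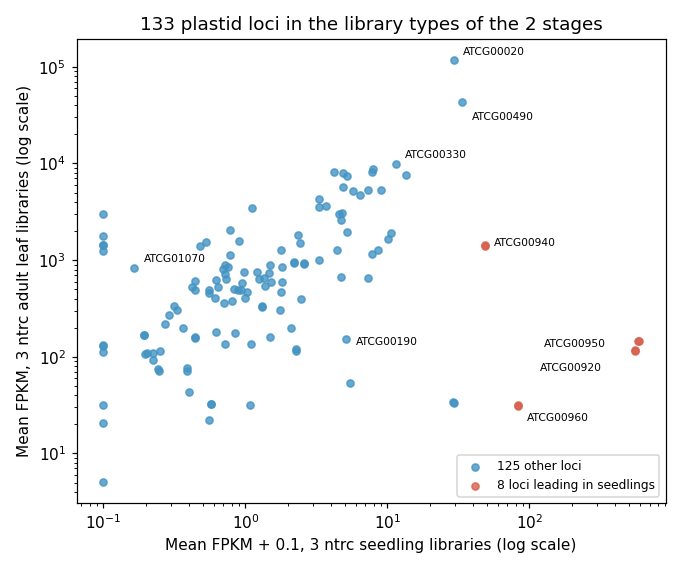
Mean FPKM of each of the 133 plastid loci in 3 adult ntrc leaf libraries (vertical, log scale) against the mean FPKM + 0.1 in 3 ntrc seedling libraries (horizontal, log scale). ATCG00020 stands highest in adult leaves, the 8 leading loci (4 near-identical pairs) stand furthest right, and the 11 loci at 0 in ntrc seedlings line the left edge.

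Across the 125 other loci, the mean levels in adult ntrc leaves and ntrc seedlings had a Spearman coefficient of 0.550, and over all 133 loci 0.403. Between ntrc and wild type seedlings the coefficient was 0.964 over the 133 loci. These are correlations across loci that share libraries, scaling and, within pairs, reads, and they describe the order only. Seedling libraries of a group ranked the loci less alike than adult ones, at 0.868 to 0.897 within ntrc and 0.849 to 0.876 within wild type, and the median coefficient of variation was 35.0% in ntrc seedlings and 39.98% in wild type seedlings.

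Levels in adult leaves resembled each other along the locus numbers, which by convention follow position on the plastid genome. The median difference between 132 neighbouring pairs of loci was 1.11 on the log2(FPKM + 1) scale, against 2.28 over all 8778 pairs. As examples, the neighbours ATCG00330, ATCG00340 and ATCG00350 read 10250, 7738 and 7503 FPKM in adult ntrc library 1, and ATCG00560, ATCG00570 and ATCG00580 read 3307, 4872 and 7255 FPKM. At the low end, the neighbours ATCG00170, ATCG00180 and ATCG00190 read 124, 188 and 145 FPKM in the same library. In seedlings the order within that last run was steeper, with 0.590, 2.05 and 5.06 FPKM in ntrc library 1 and 0.859, 2.85 and 6.49 FPKM in wild type library 1.

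**Figure D3:**
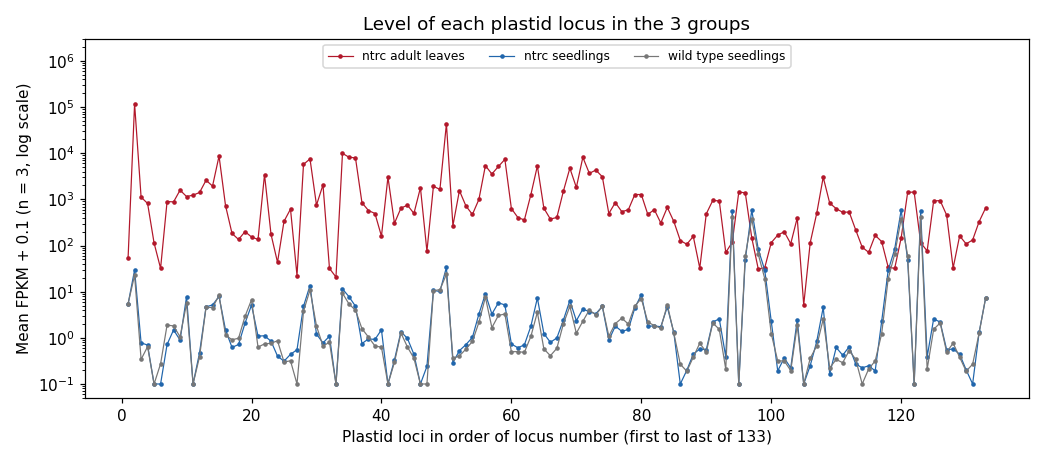
Mean FPKM + 0.1 (log scale, n = 3) of the 133 plastid loci in order of locus number, for adult ntrc leaves, ntrc seedlings and wild type seedlings. The adult level lies above both seedling levels except at ATCG00920, ATCG00950 and ATCG00960 and their partners ATCG01210, ATCG01180 and ATCG01170, and the lines of the seedling genotypes run close together.

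The genotype comparison asked which plastid loci differed between ntrc and wild type seedlings. No plastid locus passed the test. Of the 133 loci, 68 were at 1 FPKM or above in 3 or more seedling libraries and so were tested within a fit over 18818 genes (limma, Benjamini-Hochberg adjusted p below 0.05). None was called in either direction, with a smallest adjusted p of 0.925, where 0.00531% of all genes tested were called higher and 0.0213% lower. With the replicate number as a block none was called either, with a smallest adjusted p of 0.0664 for ATCG00970 (limma, Benjamini-Hochberg), where 0.159% of all genes were called higher and 0.229% lower. Before adjustment (limma p below 0.05), 8 loci were higher and 2 lower in ntrc without the block, 11.8% and 2.94% of the 68, against 3.35% and 1.66% of all genes. With the block there were 19 higher and 3 lower, 27.9% and 4.41%, against 7.31% and 4.3%. Counts over the 68 loci, here and below, take both members of near-identical pairs, which are not independent. The unchecked planned list put ATCG00970 and its near-identical partner ATCG01160 under ribosomal RNA. ATCG00970 read 13.6, 19.5 and 54.3 FPKM in ntrc libraries 1 to 3 and 9.38, 14.2 and 33.9 FPKM in wild type libraries 1 to 3. It was higher in ntrc within each number, while the groups overlapped widely. In the fit without the block, its log2 fold change of 0.53 (SE 0.65) was -0.027 without ntrc library 3 and 0.15 without wild type library 1. It was 0.93 without ntrc library 1 and 1.02 without wild type library 3. Leaving out 1 library there breaks a pair. In the blocked fit it was 0.55, 0.58 and 0.46 without number 1, 2 and 3.

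The tested plastid loci lay on the higher side in ntrc seedlings. A positive log2 fold change was found for 49 of the 68, or 72.1%, against 51.2% of all genes, and the median was 0.22 against 0.0037 over all genes. The fold changes ran from -0.81 to 0.94 on the log2(FPKM + 1) scale, which understates changes of low loci. This shift rested largely on 1 library. The within-number medians were 0.10, 0.092 and 0.44 for numbers 1 to 3, with 39, 39 and 53 of the 68 loci higher in ntrc. Without ntrc library 3 the median was 0.050 with 39 of 67 loci higher, and leaving out wild type library 1 gave 0.14 with 43 of 68. These were also the seedling libraries with the highest and the lowest plastid share of summed FPKM. The other 65 loci, too low for the test, had a median level of 0.311 FPKM, and 40 had a higher mean in ntrc, 17 a lower one and 8 were at 0 in both groups.

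**Figure D4:**
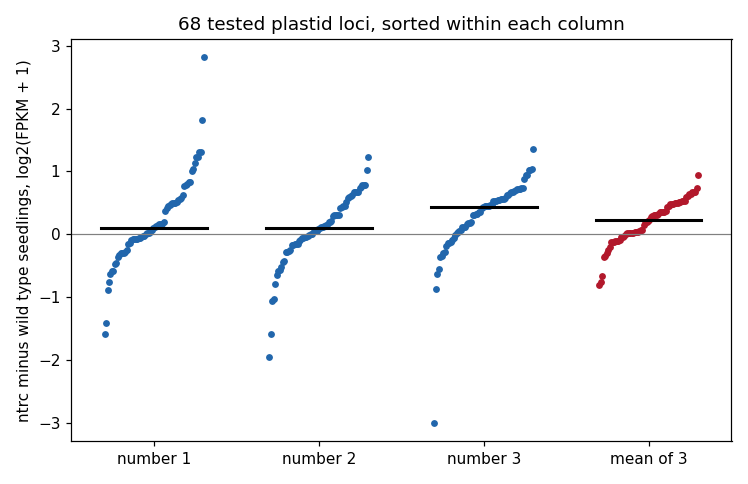
Difference in log2(FPKM + 1), ntrc minus wild type seedlings, for each of the 68 tested plastid loci within library numbers 1, 2 and 3 and as the mean of the 3, each column sorted. Black lines are medians, at 0.10, 0.092, 0.44 and, for the mean of 3, 0.22.

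The seedling libraries of the genotypes did not overlap for 9 tested loci. Those and the neighbours set beside them were chosen for naming after their values were seen. In ntrc 8 were higher, or 11.8% against 5.39% of all genes, and 1 lower, or 1.47% against 4.37%. The 8 count both ATCG00905 and ATCG01230, a pair with the same seedling values. ATCG01060 had the smallest p without a block. It read 4.16, 4.44 and 4.82 FPKM in ntrc libraries 1 to 3 and 2.03, 2.25 and 3.05 FPKM in wild type libraries 1 to 3, so each ntrc library lay above each wild type library. Its log2 fold change was 0.68 (SE 0.13) with an adjusted p of 0.925 without and 0.0774 with the block (limma, Benjamini-Hochberg), and it lay between 0.59 and 0.80 when any 1 library was left out.

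Some loci of neighbouring number lay on the same side, the positive one, as did 49 of the 68 tested loci. ATCG00560 read 1.88, 3.50 and 4.17 FPKM in ntrc seedlings and 1.05, 1.83 and 1.81 FPKM in wild type seedlings, a log2 fold change of 0.68 (SE 0.24). ATCG00570 read 4.95, 7.10 and 4.88 FPKM in ntrc and 0.691, 5.62 and 2.56 FPKM in wild type, where library 1 was low and the groups overlapped. Its fold change of 0.94 (SE 0.50) was the largest among the 68 and was 0.44 without wild type library 1 and 1.42 without wild type library 2. ATCG00580 read 4.15, 5.39 and 5.66 FPKM in ntrc and 2.63, 2.99 and 3.94 FPKM in wild type, a fold change of 0.54 (SE 0.15) with separate groups. The neighbour before them, ATCG00550, had 0.20 (SE 0.16).
The other separate loci were ATCG00700 (log2 fold change 0.74, SE 0.24), ATCG00340 (0.45, SE 0.15), ATCG00270 (0.29, SE 0.11) and the near-identical pair ATCG00905 and ATCG01230 (0.52 each, SE 0.14). Over the 8 separate loci higher in ntrc, ATCG01060 included, adjusted p was 0.925 to 0.947 without and 0.0774 to 0.368 with the block (limma, Benjamini-Hochberg). Among the untested loci, ATCG00650 and ATCG00660 were also separate and higher in ntrc, all under 1.02 FPKM.

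Among the loci lower in ntrc were some of another run of neighbours. ATCG00180 read 2.05, 2.07 and 1.81 FPKM in ntrc seedlings and 2.85, 3.42 and 2.21 FPKM in wild type seedlings. Of the tested loci it alone was lower in ntrc with no overlap. Its log2 fold change was -0.35 (SE 0.14). ATCG00190 read 5.06, 5.33 and 4.72 FPKM in ntrc and 6.49, 8.54 and 4.76 FPKM in wild type, lower in ntrc in 3 of 3 numbers, with -0.30 (SE 0.18). This was -0.12 without wild type library 2 and -0.49 without wild type library 3. ATCG00170 was too low for the test, at 0.590, 0.548 and 0.715 FPKM in ntrc and 0.859, 0.970 and 0.808 FPKM in wild type, and its groups did not overlap either. ATCG00065, elsewhere on the genome, had the most negative fold change, -0.81 (SE 0.28), and had -0.54 without ntrc library 1. It read 0.0662, 1.08 and 0.710 FPKM in ntrc and 2.22, 2.09 and 1.07 FPKM in wild type. The unchecked planned list put it under the same gene as ATCG00905 and ATCG01230. Those loci went the other way, with 0.52 each, so these entries give no single direction. Loci outside that run were lower too, and 19 of the 68 had a negative fold change. ATCG00290 had -0.37 (SE 0.21), lower in 3 of 3 numbers. ATCG00360 had -0.76 (SE 0.46), lower in 2 of 3. The groups overlapped for both. In all, 5 of the 68 were lower in ntrc in 3 of 3 numbers, or 7.35% against 15.2% of all genes, and 22 were higher, or 32.4% against 18.7%. The adjusted p of ATCG00180 was 0.947 without and 0.312 with the block, and that of ATCG00065 was 0.947 and 0.295 (limma, Benjamini-Hochberg).

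**Figure D5:**
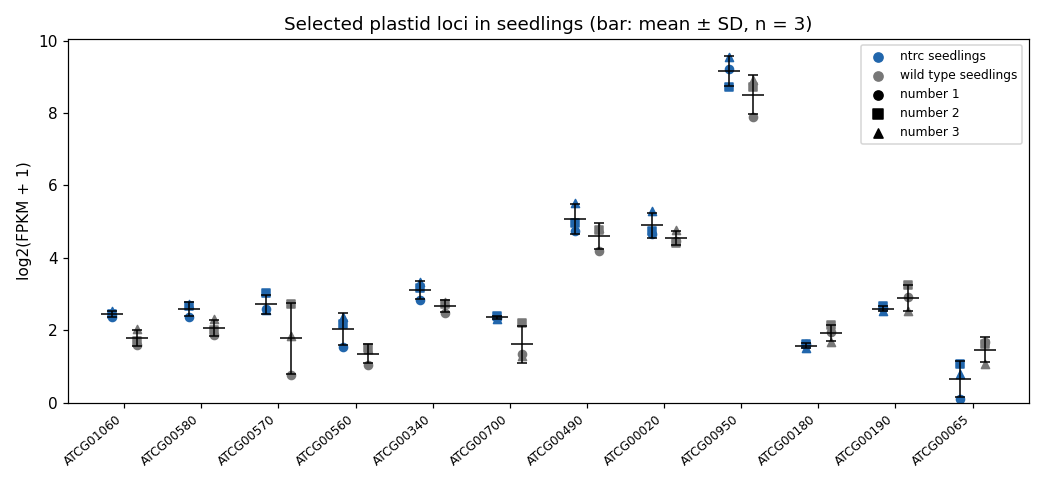
log2(FPKM + 1) of 12 plastid loci in the 3 ntrc and the 3 wild type seedling libraries, with the mean and SD of each group (n = 3) as bars and library numbers as symbols. The groups do not overlap for ATCG01060, ATCG00580, ATCG00560, ATCG00340, ATCG00700 and ATCG00180, and do for the other 6.

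Values were also taken as shares of the 125 other loci, which removes a shift common to those loci. The 125 still include ATCG00970 and ATCG01160, which the unchecked planned list put under ribosomal RNA. Of the 9 loci with separate groups, 4 stayed separate as shares (ATCG00340, ATCG00560, ATCG00580 and ATCG01060) and 5 overlapped (ATCG00180, ATCG00270, ATCG00700, ATCG00905 and ATCG01230). ATCG01060 held 1.24% ± 0.245 in ntrc seedlings and 0.807% ± 0.0891 in wild type seedlings, 1.54 times as much (SD, n = 3 each). ATCG00560 held 0.834% ± 0.137 in ntrc and 0.510% ± 0.0732 in wild type, 1.64 times as much (SD, n = 3 each). ATCG00580 and ATCG00340 had 1.31 and 1.18 times the wild type share, and ATCG00270 had 1.05 times. ATCG00180 held 0.743%, 0.556% and 0.384% in ntrc libraries 1 to 3 and 1.17%, 1.08% and 0.638% in wild type libraries 1 to 3, so the lowest wild type library lay within the ntrc range. Its mean share in ntrc was 0.585 times that in wild type, that of ATCG00190 0.634 times and that of ATCG00065 0.248 times. The 2 largest loci of adult leaves differed less. ATCG00020 held 7.93% ± 0.985 in ntrc and 7.55% ± 1.12 in wild type, and ATCG00490 held 8.96% ± 0.757 in ntrc and 7.75% ± 0.627 in wild type (SD, n = 3 each). On the log2(FPKM + 1) scale, ATCG00020 had 0.35 (SE 0.19) and ATCG00490 had 0.48 (SE 0.25). Without ntrc library 3 these were 0.14 and 0.25, and ATCG00490 was at 0.27 without wild type library 1. The leading loci ATCG00950 and ATCG00920 had 0.65 (SE 0.31) and 0.50 (SE 0.33), each higher in ntrc in numbers 1 and 3 and lower in number 2. Without wild type library 1 they had 0.34 and 0.13.

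A single locus passed in a fit that left out libraries. ATCG00630 read 1.65, 10.8 and 9.11 FPKM in ntrc libraries 1 to 3 and 3.47, 4.05 and 2.94 FPKM in wild type libraries 1 to 3, with ntrc library 1 below all wild type libraries and the other ntrc libraries above them. Its log2 fold change was 0.61 (SE 0.58, adjusted p = 0.953, limma with Benjamini-Hochberg) with all 6 libraries. Without ntrc library 1 it was 1.29 with an adjusted p of 0.0469, and in the blocked fit without number 1 it was 1.29 (adjusted p = 0.0371; both limma, Benjamini-Hochberg). The library left out is the lowest ntrc library for this locus. Without ntrc library 2 the fold change was 0.21, and 0.33 without ntrc library 3.

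For 6 loci the reference gives a description, in notes on nuclear genes that it relates to them. ATCG00670 is described as the plastid-encoded CLP P, a proteolytic subunit of the Clp protease that degrades proteins in the plastid. It read 1434, 1412 and 1646 FPKM in adult ntrc leaves, 1.93, 1.98 and 3.04 FPKM in ntrc seedlings and 1.89, 2.12 and 1.70 FPKM in wild type seedlings, the seedling genotypes overlapping with a log2 fold change of 0.18 (SE 0.15), or 0.028 without ntrc library 3. Its nuclear relative CLP2 (AT1G12410) read 34.8 ± 0.0320 FPKM in adult ntrc leaves, 117 ± 2.22 FPKM in ntrc seedlings and 127 ± 12.3 FPKM in wild type seedlings (SD, n = 3 each).
The plastid locus thus stood above its nuclear relative in the adult total RNA libraries and below it in the seedling mRNA libraries. The locus of ribosomal protein L2 and its relative stood in the same order. ATCG01310 (ribosomal protein L2, of the large subunit) read 649 ± 66.2 FPKM in adult ntrc leaves, 7.14 ± 0.940 in ntrc seedlings and 7.27 ± 0.945 in wild type seedlings, and its nuclear relative AT2G44065 read 7.71 ± 0.279 FPKM in adult ntrc leaves, 25.2 ± 0.652 FPKM in ntrc seedlings and 25.9 ± 1.46 FPKM in wild type seedlings (SD, n = 3 each). ATCG00750, ribosomal protein S11 of the small subunit, read 852 ± 79.3 FPKM in adult ntrc leaves, 1.69 ± 0.302 FPKM in ntrc seedlings and 1.94 ± 0.556 FPKM in wild type seedlings (SD, n = 3 each). ATCG00660, ribosomal protein L20, was under 1.02 FPKM in every seedling library and at 406 ± 21.4 FPKM in adult ntrc leaves (SD, n = 3).
ATCG00530, described as a CemA-like proton extrusion protein, read 471 ± 58.8 FPKM in adult ntrc leaves, 0.919 ± 0.490 in ntrc seedlings and 0.736 ± 0.302 in wild type seedlings. ATCG00430 is described as photosystem II reaction center protein G in a note on AT5G11770 (a mitochondrial NADH-ubiquinone oxidoreductase subunit). The planned list put it under the NDH complex instead, so that description is doubtful. ATCG00430 read 749 ± 60.8 FPKM in adult ntrc leaves, 0.869 ± 0.133 in ntrc seedlings and 0.533 ± 0.286 in wild type seedlings (SD, n = 3 each). The seventh locus in the reference, ATCG00420, is named only as the parent of a nuclear pseudogene, and had a log2 fold change of 0.056 (SE 0.21) between the seedling genotypes.

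Nuclear genes that transcribe and process plastid RNA did not pass the test in seedlings. None of 8 tested genes for sigma factors and phage-type polymerases was called with or without the block, with 3 higher and 5 lower and a median log2 fold change of -0.055. SIGA (AT1G64860), a sigma factor that guides the plastid polymerase, had 0.31 (SE 0.17) and the smallest p, with an adjusted p of 0.947 without and 0.218 with the block (limma, Benjamini-Hochberg). SCA3 (AT2G24120), the phage-type polymerase of plastids, had -0.13 (SE 0.15).
Of 13 genes for proteins that attach to the plastid-encoded polymerase, 12 had a negative and 1 a positive fold change, all between -0.14 and 0.0054, with a median of -0.080, and none was called. FSD2 (AT5G51100), an iron superoxide dismutase found with that polymerase, had -0.11 (SE 0.092). Of 12 tested genes of plastid RNA processing and stability, 10 were negative and 2 positive with a median of -0.063, and none was called. The smallest p there was that of emb2746 (AT5G63420), an RNase J, with -0.35 (SE 0.12) and adjusted p of 0.947 without and 0.233 with the block (limma, Benjamini-Hochberg). At an unadjusted p below 0.05 (limma, no block), emb2746 alone of the 3 lists was lower, where 3.35% of all genes were higher and 1.66% lower. With the block, where 7.31% of all genes were higher and 4.3% lower, SIGA was higher and SIG4 lower among the 8 genes of the first list, none of the 13 polymerase-associated genes was past that p, and emb2746, MRL1 and PGR3 were lower among the 12 processing genes.

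Markers of green tissue and of roots were set beside these values. The 12 green tissue markers, nuclear genes of Rubisco, its activase, the antenna and the Calvin-Benson cycle, summed to 43129 to 53700 FPKM in ntrc seedlings and 40519 to 55758 FPKM in wild type seedlings, with 6 of 12 fold changes positive and a median of 0.016. None was called in either fit. Within that list, the 6 negative fold changes ran from -0.24 for RPI3 to -0.012 for PRK, and RBCS3B and RCA had 0.088 and 0.043. The remaining positive ones, 4 genes of light-harvesting antenna proteins singled out after their values were seen, were higher in ntrc in 3 of 3 numbers, with overlapping groups. The log2 fold changes of these 4 were 0.55 for LHCA1 (SE 0.27), 0.34 for LHCB3 (SE 0.23), 0.30 for LHCB5 (SE 0.21) and 0.27 for LHCB4.1 (SE 0.24). Adjusted p was 0.947 for each without the block and 0.0821 for LHCA1 to 0.288 for LHCB4.1 with it (limma, Benjamini-Hochberg). Before adjustment, these 4 of the 12 were past limma p below 0.05 with the block, where 7.31% of all genes were higher and 4.3% lower, and none of the 12 was without it.
The 13 root markers had a median of 0.075, with 10 positive, and none was called in either fit. ESB1, a gene of the root barrier known as the Casparian strip, read 4.93, 5.80 and 6.54 FPKM in ntrc seedlings and 10.4, 12.7 and 7.83 FPKM in wild type seedlings, and was the single one of these markers whose groups did not overlap. Its log2 fold change was -0.73 (SE 0.17), with adjusted p of 0.947 without and 0.160 with the block (limma, Benjamini-Hochberg). It alone of the 13 was past an unadjusted limma p of 0.05 in either fit. Over all genes tested, groups were separate for 5.39% with ntrc higher and 4.37% with ntrc lower. Past that unadjusted p, 3.35% of all genes were higher and 1.66% lower without the block, and 7.31% and 4.3% with it. The part of the root and green tissue markers in the plastid values was not tested.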

How the data were processed

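RNA was sequenced from 9 libraries, and the authors deposited 1 table of 32833 loci on a log2 scale, read as log2(FPKM + 1) from the name of the deposited data and the values (lowest 0, equal upper quartiles of 2.44 in adult and 3.70 in seedling libraries). Tools named in the submitters' processing notes are HISAT2, StringTie and FastQC, with the build TAIR10 and no versions. FPKM was recovered by undoing the log. Depth is unknown, so precision rests on 3 libraries per group, which the series' design text calls biological replicates.

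For the seedling genotypes, limma 3.58.1 (R 4.3.3) was run two-sided with a mean trend and robust moderation on the 6 seedling columns. A gene entered with 1 FPKM or more in 3 or more of them, which left 18818 genes, and p was adjusted by Benjamini-Hochberg over all. The fit was tried on simulated data with independent noise in each library. These held no shared effect of library number, so they do not test the pairing. Deviations from group means correlated at 0.506, 0.406 and 0.278 for equal library numbers and at -0.388 to 0.115 for different ones, so the numbers were taken as pairs, a reading from the values and not the labels. Shares, sums and stage differences were described without a test.

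Members and lists were chosen with earlier results of these data known. Functional classes of the plastid loci had been planned, with protein-coding loci as denominator and named loci per class. They rested on general knowledge, since the sources used here do not pair ATCG names with genes. No count or comparison used them. All 133 loci served instead. Loci were named by largest share in each group, largest and smallest stage ratio and largest seedling fold change, and others after their values were seen. Nuclear symbols come from RefSeq TAIR10.1, which matched 32548 of 32548 nuclear loci by locus tag.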

Additional observations from a re-analysis of the deposited data

How the results depend on the processing

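The count of plastid loci called between seedling genotypes was 0 under the replicate block, a pseudocount of 0.1, no filter and each other scaling, and ranged from 0 to 1 over the fits without 1 library and, with the block, without 1 number (1 without ntrc library 1 or number 1). The median fold change kept its sign in every setting tried, between 0.050 and 0.34 without 1 library and at 0.089 with no filter on low values. The adult share was 46.2% in place of 48.1% with a pseudocount of 0.1 when the log is undone. The largest share was 36.4% (ntrc seedlings) and 33.8% (wild type seedlings) with 1 locus of each near-identical pair, in place of 20.1% and 18.8%. With the 125 other loci as denominator, an alternative chosen after seeing the data, 19 loci held a larger and 34 a smaller share in adult leaves, in place of 101 and 13, since the leading loci leave the sum. Both counts of larger shares include the 11 loci at 0 in ntrc seedlings, which the rule always counts as larger. Of the 19 loci followed singly, ATCG00970 had a log2 fold change of -0.027 (without ntrc library 3) to 1.02 (without wild type library 3) in place of 0.53. Those are fits without the block, and the blocked fits without 1 number gave 0.46 to 0.58. ATCG00670 had -0.023 in the blocked fit without number 3 in place of 0.18. The cause was not tested. The block changed no call of a plastid locus with all libraries. The alternatives with protein-coding loci as denominator were not run. Unknown depth limits what can be read from loci near 0 in seedlings.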

Other observations

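The pair ATCG00830 and ATCG01310 showed an uneven division of values. Both read 6.05 FPKM in ntrc seedling library 1 and 8.29 FPKM in wild type seedling library 2, and they lay within 5% of each other in 4 of the 6 seedling libraries. ATCG00830 was listed at 0 in ntrc library 3 and in wild type library 1, where ATCG01310 read 7.73 and 6.43 FPKM. In adult ntrc leaves ATCG00830 read 657, 615 and 736 FPKM and ATCG01310 read 628, 597 and 724 FPKM.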
